A study of Danio rerio with 12 samples.

Results

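The interaction of spinal injury with Cxcr4 inhibition was examined in GFP-positive cells of zebrafish larvae, as the injury effect in larvae given AMD3100 minus the injury effect in larvae given DMSO. Every zebrafish or EGFP entry of the deposited count table was a member, 31263 of 31351 entries, the other 88 being ERCC spike-in controls, and 8453 of them had enough counts to be tested. The larvae carried the mpx:GFP transgene, in which the promoter of the neutrophil myeloperoxidase gene drives GFP, so the sorted cells are those in which that promoter is or was active. At 3 days post-fertilization (dpf) the spinal cord was cut through at the level of the anal pore, or the larvae were left uninjured, and all libraries were of 8 hours post-injury or the matching age. Injured and uninjured larvae were each kept in DMSO or in AMD3100, which makes 4 groups, with 3 libraries each that the labels call biological replicates. AMD3100 was given at 25 uM with 0.1% DMSO from 4 to 8 hours post-injury, so the first hours after the lesion passed without it. Neither the percentage of DMSO in the DMSO groups nor the number of larvae per library is stated in the labels. The p-values measure the spread between these 3 libraries per group, whatever separates them.

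Cxcr4 is a chemokine receptor whose ligand Cxcl12 holds neutrophils at the sites where it is made, in the blood-forming tissue and at wounds. AMD3100, also called plerixafor, is a small molecule that blocks Cxcr4. After a wound, neutrophils are drawn in by chemokines and other signals, release proteases, oxidants and cytokines, and later leave or die. The study's title and design text place the question in regeneration of the cord and in what neutrophils do when Cxcr4 is blocked, and the interaction asks which injury responses are weaker or stronger with the inhibitor.

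Totals ranged from 655451 counts in injured AMD3100 replicate 1 to 12173133 in injured AMD3100 replicate 3. Injured AMD3100 replicate 1 stood apart: it scored 114.4 on the first principal component (29.2% of the variance), where the other 11 libraries scored from -39.9 to 33.0. It held EGFP at 364.5 CPM (counts scaled with TMM factors to equal library size, the unit of all levels below), where the others held 1259 to 2141. Mitochondrial ribosomal RNA took 0.768% of counts in injured AMD3100 replicate 2 and 6.18% to 21.5% in the other libraries. The defining neutrophil marker mpx, which encodes myeloperoxidase, was at 940.1 CPM or more in all 12 libraries. Where leaving out injured AMD3100 replicate 1 turned the sign of an interaction described below, the value without that library is given. Such values are also given for some other genes, and the lack of one does not mean that the interaction stayed the same.

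Genes that changed with injury in 1 treatment mostly moved the same way in the other, and no gene passed the threshold for a difference between the treatments. Of 8453 genes, 0 had an adjusted p under 0.05 for the interaction by edgeR's quasi-likelihood test, 0% of those tested, and the smallest adjusted p was 1. At an unadjusted p under 0.05 there were 265, which is 3.13% of genes, 129 with a positive (1.53%) and 136 with a negative (1.61%) interaction. DESeq2 called 0, with 324 at an unadjusted p under 0.05 among 20231 genes, and limma-voom called 0, with 264. Without the filter on low counts, edgeR called 68 of 20264, 34 in each direction. These included muscle and globin genes that varied widely within a group. Genes of neither kind were also called, such as dcp1a (adjusted p = 8.66e-16) and gna13a (adjusted p = 1.115e-12). The muscle gene myl13 (adjusted p = 5.22e-24) ranged from 8.06 to 172 CPM within uninjured DMSO. In the filtered edgeR fit the smallest unadjusted p of any gene was 0.000416, and that of myl13 was 0.00229. The small p-values of the unfiltered fit were thus not seen in the filtered one. With the filter and without injured AMD3100 replicate 3 edgeR called 2, il11b and znf292b, and without any 1 of the other 11 libraries it called 0. A positive interaction means that the log2 fold change with injury was higher in AMD3100, and a negative one that it was lower.

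The data limit how small a difference could have been seen. The median standard error of the interaction was 0.64 on the log2 scale, against 0.46 for injury in each treatment. The 95% interval of the interaction lay within 1 log2 unit of 0 on both sides for 626 genes, 7.41% of those tested, and within 2 log2 units for 4686, 55.4%. The width followed abundance: the median half-width was 1.98 for the 4212 genes under 10 CPM, 1.06 for the 3345 from 10 to 100 CPM and 0.92 for the 896 at 100 CPM or more. For most genes the interval thus reached past a 2-fold difference between the treatments on at least 1 side.

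The log2 fold change with injury in each treatment rested on libraries that the other did not share. The filter, the scaling and the estimate of spread used all 12 libraries, so the 2 lists of calls are not independent. In DMSO 439 genes changed with injury, 5.19% of those tested, 242 higher (2.86%) and 197 lower (2.33%). In AMD3100 458 changed, 5.42%, 254 higher (3.00%) and 204 lower (2.41%). Both lists held 246 genes, 56% of the DMSO list and 53.7% of the AMD3100 list, and all 246 changed in the same direction. Both counts moved with single libraries: with 1 left out, the count in DMSO ran from 163 (uninjured DMSO replicate 3) to 659 (injured AMD3100 replicate 1), and that in AMD3100 from 119 (uninjured AMD3100 replicate 2) to 574 (injured AMD3100 replicate 3). Of the 439 genes called in DMSO, 429 had the same sign in AMD3100, and of the 458 called in AMD3100, 450 had the same sign in DMSO. The share of all 8453 genes with the same sign in both treatments is not given here, so these counts have no share to stand beside. Across all 8453 genes the log2 fold changes of the 2 treatments had a Pearson r of 0.56 and a Spearman rho of 0.58, and r was 0.47 under 10 CPM, 0.71 from 10 to 100 CPM and 0.81 at 100 CPM or more. These correlations are across genes, which are not independent replicates.

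A call in 1 treatment alone is not a difference between treatments. The 193 genes called in DMSO and not in AMD3100 had a median absolute log2 fold change of 1.73 in DMSO and 0.93 in AMD3100, and 183 had the same direction in both. The 212 genes called in AMD3100 and not in DMSO had 0.92 in DMSO and 1.63 in AMD3100, and 204 had the same direction. These sets were chosen by a large value in 1 treatment, which favours that treatment, and no count of unadjusted interaction p-values over them is support. In the 246 genes called in both, the medians were 1.84 in DMSO and 1.82 in AMD3100.

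To set the sizes side by side without favouring a treatment, genes were taken by the injury effect averaged over both. This mean effect passed the threshold for 1351 genes, 16.0% of those tested, 674 higher (7.97%) and 677 lower (8.01%). The 674 that rose had a median log2 fold change of 1.17 in DMSO and 1.16 in AMD3100, and 355 had the larger value in DMSO and 319 in AMD3100. The 677 that fell had medians of -1.33 in DMSO and -1.31 in AMD3100, with 349 falling further in DMSO and 328 in AMD3100. Unadjusted interaction p-values under 0.05 were found for 18 of the rises, 2.67%, of which 12 were weaker and 6 stronger with AMD3100, and for 31 of the falls, 4.58%, of which 16 were weaker and 15 stronger. These shares stand beside 3.13% over all genes. The interval lay within 1 log2 unit of 0 for 111 of the 674 rises and 65 of the 677 falls.

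Which treatment had the larger median turned with single libraries. Without injured AMD3100 replicate 1 the rises had medians of 1.192 in DMSO and 1.104 in AMD3100, and the falls -1.31 and -1.26. Without injured AMD3100 replicate 3 the rises had 1.15 and 1.32, and the falls -1.35 and -1.40. With factors that scale by relative log expression (RLE) in place of TMM the rises had 1.13 and 1.19.

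**Figure D1:**
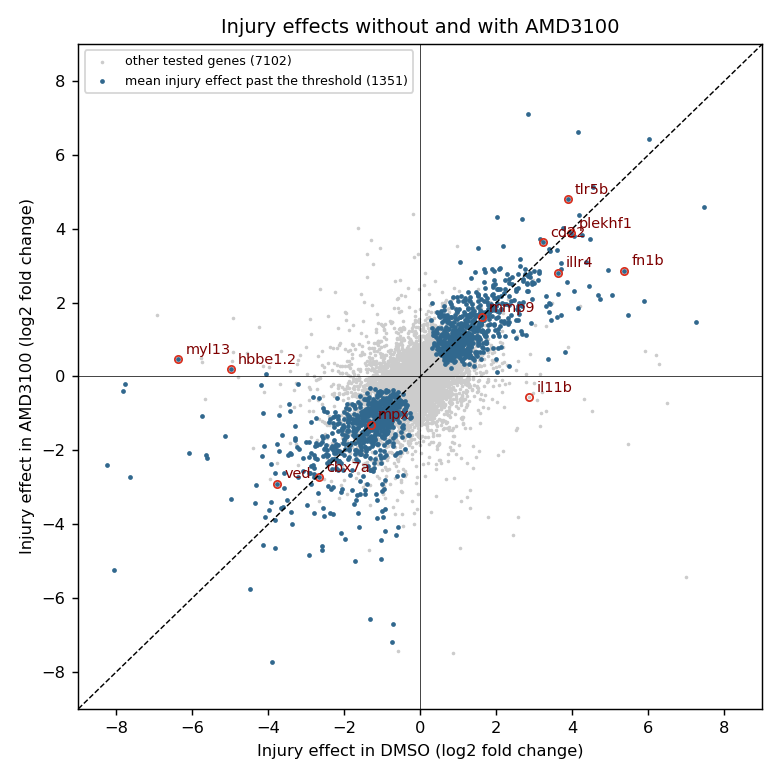
Log2 fold change with injury in DMSO (horizontal axis) and in AMD3100 (vertical axis) for each tested gene. Blue points are the 1351 genes whose mean injury effect passed the threshold, grey points the other tested genes, red circles named genes, and the dashed line marks equal effects. 1 gene lies outside the axes. Most blue points lie near the line in the upper right and lower left, while il11b, myl13 and hbbe1.2 lie away from it.

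illr4, cd22 and tlr5b, receptor genes among the named rises, rose in both treatments, and their interactions had intervals that hold 0. illr4, which encodes a C-type lectin-like receptor of immune cells, held 64.2, 59.3 and 42.0 CPM in uninjured DMSO and 558, 628 and 835 in injured DMSO. In AMD3100 it held 93.4, 68.5 and 114 CPM in uninjured and 510, 940 and 466 in injured libraries. Injured and uninjured libraries did not overlap in either treatment, and the uninjured AMD3100 libraries were all above the uninjured DMSO ones. The rise was 3.62 in DMSO (log2, adjusted p = 0.000313) and 2.80 in AMD3100 (adjusted p = 0.00079), an interaction of -0.82 with a 95% interval from -1.78 to 0.15.

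cd22, whose mammalian counterpart encodes a lectin that binds sialic acid, held 22.3, 31.5 and 13.1 CPM in uninjured DMSO and 204, 224 and 184 in injured DMSO. It held 16.9, 21.1 and 29.0 CPM in uninjured AMD3100 and 465, 213 and 166 in injured AMD3100. The 2 uninjured groups overlapped each other, and so did the 2 injured groups, with injured AMD3100 replicate 1 the highest library. The interaction was 0.40 (95% interval -0.78 to 1.58), and -0.17 without that library.

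tlr5b encodes a Toll-like receptor for bacterial flagellin. It rose from 8.16, 9.52 and 10.9 CPM to 107, 163 and 156 in DMSO, and from 15.8, 7.93 and 16.5 to 862, 155 and 99.6 in AMD3100. The value of 862 CPM came from injured AMD3100 replicate 1, and the other 2 injured AMD3100 libraries lay below the highest of injured DMSO. The interaction was 0.92 (95% interval -0.95 to 2.79) with that library and -0.59 without it.

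plekhf1, which encodes a protein that binds a lipid of endosome membranes, rose by close amounts in the 2 treatments. It went from 5.98, 5.86 and 3.82 CPM to 47.8, 96.4 and 88.6 in DMSO and from 10.4, 5.99 and 8.76 to 212, 91.5 and 69.2 in AMD3100. The rise was 3.96 in DMSO (log2, adjusted p = 0.000504) and 3.88 in AMD3100 (adjusted p = 0.00079). The interaction of -0.09 had an interval from -1.39 to 1.22, which holds differences of more than 2-fold in either direction, and it was -0.68 without injured AMD3100 replicate 1, which held the 212.

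arg2, the gene of the mitochondrial arginase that turns arginine into ornithine and urea, rose by 3.13 in DMSO (adjusted p = 0.00136) and 2.85 in AMD3100 (adjusted p = 0.00214). Its injured libraries held 143, 113 and 141 CPM in DMSO and 67.3, 153 and 139 in AMD3100, above all uninjured libraries, which held 8.06 to 28.3 CPM. The interaction was -0.28 (95% interval -1.51 to 0.95).

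fn1b, which encodes fibronectin of the extracellular matrix, had the lowest estimate among the large rises. It held 6.53, 1.47 and 0.545 CPM in uninjured DMSO and 165, 77.4 and 55.6 in injured DMSO. It held 9.44, 4.61 and 7.005 CPM in uninjured AMD3100 and 12.6, 109 and 19.6 in injured AMD3100. Injured and uninjured libraries did not overlap in either treatment, but the injured AMD3100 libraries spread from 12.6 to 109 CPM. The rise was 5.36 in DMSO (log2, adjusted p = 0.00384) and 2.86 in AMD3100 (adjusted p = 0.0425), and the interaction was -2.50 (unadjusted p = 0.0499, adjusted p = 1, 95% interval -5.003 to -0.001). Over the alternatives the interaction of fn1b ranged from -4.03 to -1.08, and the call in AMD3100 was lost in 10 of 26 of them. Without injured AMD3100 replicate 1 the interaction of fn1b was -2.14.

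The other large rises had intervals on both sides of 0. aif1l, the gene of an actin-binding protein, rose by 3.71 in DMSO and 3.06 in AMD3100, with an interaction of -0.65 (95% interval -2.18 to 0.89). stoml3b, a stomatin-family gene, rose by 3.16 and 3.73, with an interaction of 0.57 (-1.02 to 2.15). fkbp1ab, which encodes a prolyl isomerase that binds the drug FK506, rose by 3.71 and 2.91, with an interaction of -0.79 (-2.65 to 1.06), and its value of 136 CPM in injured AMD3100 replicate 2 lay far above the 26.6 and 23.6 of the other 2.

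Among genes lowered by injury, 2 regulators gave some of the closest matches between treatments. cbx7a, which encodes a chromobox protein of the Polycomb complex, fell from 51.1, 51.3 and 54.5 CPM to 10.6, 8.31 and 6.09 in DMSO and from 50.6, 48.7 and 37.0 to 5.61, 5.32 and 8.68 in AMD3100. The groups of injured and uninjured libraries stood far apart in both treatments, and the treatments overlapped. The log2 fold change was -2.67 in DMSO (adjusted p = 0.000504) and -2.73 in AMD3100 (adjusted p = 0.00079), an interaction of -0.07 (95% interval -0.96 to 0.83).

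ctdsp2 encodes a phosphatase that acts on RNA polymerase II and on other proteins. It fell from 19.6, 19.04 and 23.3 CPM to 3.32, 2.56 and 2.72 in DMSO and from 31.4, 24.2 and 32.8 to 7.01, 3.74 and 3.11 in AMD3100. All uninjured AMD3100 libraries were above all uninjured DMSO ones, and 2 of the 3 injured AMD3100 libraries were above all injured DMSO ones. The fold changes were -2.88 and -2.91 and the interaction was -0.03 (95% interval -1.11 to 1.05).

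ved, which encodes a homeobox repressor of transcription, fell from 124, 102 and 291 CPM to 12.3, 10.6 and 15.2 in DMSO and from 150, 49.0 and 35.5 to values between 7.33 and 12.6 in AMD3100. The injured libraries of both treatments overlapped, while the uninjured ones ranged from 35.5 to 291 CPM. The interaction was 0.87 (95% interval -0.68 to 2.41). ryr3, the gene of a calcium release channel that muscle also expresses, fell by 3.09 in DMSO and by 2.56 in AMD3100, with 39.2 CPM in injured AMD3100 replicate 1 and 8.62 and 10.6 in the other 2, and the interaction was 0.53 (-1.01 to 2.06), or -0.23 without that library. dynlt1, bsnb and drll.1 were also named among the largest falls. dynlt1 fell by 4.08 in AMD3100 (adjusted p = 0.0131), and its value in DMSO was -1.62 (adjusted p = 0.284). Its interaction was -2.45 (unadjusted p = 0.0496, 95% interval -4.90 to -0.005). bsnb had an interaction of -3.28 (-7.59 to 1.03), and its injury effect passed in neither DMSO (adjusted p = 0.499) nor AMD3100 (adjusted p = 0.0796). Uninjured AMD3100 held bsnb at 133.5, 10.1 and 0.75 CPM. The interaction of bsnb was 0.17 without uninjured AMD3100 replicate 1, which held the 133.5, and -4.63 without injured AMD3100 replicate 1. drll.1 had an interaction of -0.29 (-3.06 to 2.48), and 1.18 without injured DMSO replicate 3.

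**Figure D2:**
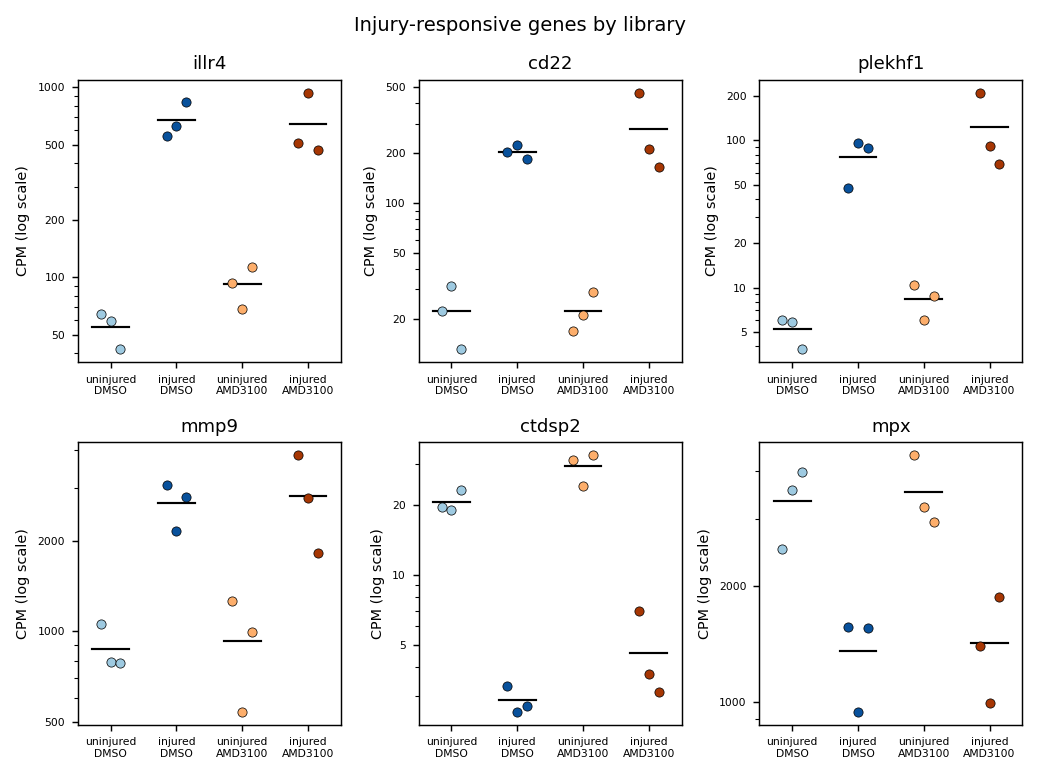
Level of 6 injury-responsive genes in each library (CPM, log axis), by group; points are the 3 libraries of a group and bars their mean. In each panel the injured libraries of a treatment stand apart from its uninjured ones, and the pattern is alike in DMSO and AMD3100, with the 3 injured AMD3100 points the most spread for cd22 and plekhf1.

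The injury calls of illr4, cd22, tlr5b, plekhf1, arg2, cbx7a, ctdsp2 and ved were kept in both treatments under all 26 alternatives, each left-out library included. In AMD3100, aif1l lost its call with the muscle share as covariate, and fkbp1ab and ryr3 also lost theirs without uninjured or injured AMD3100 replicate 2. stoml3b lost its call in DMSO after thinning of all libraries to the shallowest. drll.1 kept its call in 14 of 26 alternatives in DMSO and in 16 of 26 in AMD3100. dynlt1 kept its call in AMD3100 in 22 of the 25 alternatives that tested it. Without injured AMD3100 replicate 1 the interaction was 0.07 for stoml3b (-0.07 without uninjured DMSO replicate 1), -0.31 for aif1l, -0.47 for fkbp1ab, -0.02 for arg2 and -0.22 for ctdsp2.

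Effector genes of neutrophils were followed next. mmp9, which encodes a gelatinase, held 1058, 789.5 and 783 CPM in uninjured DMSO and 3070, 2153 and 2799 in injured DMSO, and 1258, 540.5 and 997 in uninjured AMD3100 and 3856, 2778 and 1823 in injured AMD3100. Injury raised it by 1.61 in DMSO (log2, adjusted p = 0.0143) and 1.60 in AMD3100 (adjusted p = 0.0152), with no overlap between injured and uninjured libraries of a treatment. The interaction was -0.01 (95% interval -1.02 to 1.00), and -0.30 without injured AMD3100 replicate 1. The mmp9 call was lost in DMSO without uninjured replicate 2 or 3 or injured replicate 1 or 3, and in AMD3100 without uninjured replicate 2 or 3 or with the muscle share as covariate.

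mpx fell by 1.31 in both treatments, with adjusted p = 0.025 in DMSO and 0.026 in AMD3100. Injured libraries held 1564, 940.1 and 1560 CPM in DMSO and 1395, 992 and 1878 in AMD3100, all below the uninjured range of 2508 to 4410. The mpx call was lost without most single libraries of its own treatment (5 of 6 in DMSO and 4 of 6 in AMD3100), and in AMD3100 with the muscle share as covariate. The interaction of mpx was -0.00 (95% interval -0.93 to 0.93), and 0.01 without injured AMD3100 replicate 1. In bulk samples, fewer cells of a type and less RNA per cell cannot be told apart, here or in any level below. EGFP, driven by the mpx promoter, had an interaction of -0.31 (95% interval -1.40 to 0.78), and 0.08 without injured AMD3100 replicate 1, its lowest library.

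Of 29 tested genes of neutrophil granules and identity, 5 rose and 5 fell with injury in DMSO, and 5 rose and 7 fell in AMD3100, where over all tested genes 2.86% rose and 2.33% fell in DMSO and 3.00% rose and 2.41% fell in AMD3100. The median log2 fold change was -0.06 in DMSO and -0.26 in AMD3100, and the median interaction was -0.06, against -0.04 over all genes tested. cpa5, which encodes a carboxypeptidase and was named from the marker list of mast cells, eosinophils and basophils, fell by 2.01 in DMSO and by 1.73 in AMD3100, an interaction of 0.28 (95% interval -0.66 to 1.22). Of the 4 tested genes of that list 1 fell in DMSO and 2 in AMD3100, with medians of -0.98 and -1.43. The list took a mean of 0.619% of counts in uninjured and 0.323% in injured DMSO, and 0.701% and 0.356% in AMD3100. This share includes cpa5 itself, at 3248 to 6163 CPM in uninjured and 867 to 1535 in injured DMSO, so it is not separate from the fall of cpa5. The part of such cells in the other levels was not tested. lect2l, a gene of the family of leukocyte chemotaxin 2, had 2534, 3654 and 2185 CPM in uninjured DMSO, 1374, 1301 and 971 in injured DMSO, 4022, 1763 and 3717 in uninjured AMD3100 and 411, 839 and 767 in injured AMD3100. All injured AMD3100 libraries were below all injured DMSO ones, and the uninjured groups overlapped. lect2l fell in AMD3100 (log2 fold change -2.23, adjusted p = 0.00335), and its value in DMSO was -1.199 (adjusted p = 0.0654). The interaction of lect2l was -1.03 (unadjusted p = 0.0547, 95% interval -2.09 to 0.02), and -0.78 without injured AMD3100 replicate 1.

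The NADPH oxidase makes the superoxide of the oxidative burst. cybb, the gene of the catalytic subunit, picked after its values were seen, rose by 1.43 in DMSO and 1.31 in AMD3100 on the log2 scale. Of the 7 tested genes of the oxidase 2 rose in each treatment and none fell. Over all tested genes 2.86% rose and 2.33% fell in DMSO, and 3.00% rose and 2.41% fell in AMD3100. The median log2 fold change of the 7 was 0.61 in DMSO and 0.20 in AMD3100, so cybb was not typical of them in AMD3100. Their median interaction was -0.31, and 1 of the 7 was positive, against 47.3% of all genes tested.

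Chemokine signalling is where the inhibitor acts, and the genes of Cxcr4 and of its ligand Cxcl12 had low counts here. The receptor gene cxcr4b was counted in an entry that joins it with an overlapping clone-named gene, so its reads cannot be told from those of its neighbour. That entry held 3, 4 and 22 counts in uninjured DMSO, 7, 4 and 0 in injured DMSO, 10, 9 and 14 in uninjured AMD3100 and 4, 1 and 5 in injured AMD3100. At this depth its interaction of 0.57 had an interval from -3.48 to 4.62, and it was -1.002 without injured AMD3100 replicate 1. cxcr4a, cxcl12a, cxcl12b, cxcl18b, cxcr2 and tnfa had too few counts to be tested, and il6 had 0 counts in all 12 libraries.

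Of 22 tested genes of chemokine receptors, ligands and chemotaxis, 4 rose with injury in DMSO and 2 in AMD3100, and none fell in either. Over all tested genes 2.86% rose and 2.33% fell in DMSO, and 3.00% rose and 2.41% fell in AMD3100. The median log2 fold change of the 22 was 0.94 in DMSO and 0.61 in AMD3100. The median interaction was -0.20 and 8 of the 22 were positive, against 47.3% of all genes tested. cxcr1, the gene of a receptor for Cxcl8, had values of 1.00 in DMSO (adjusted p = 0.165) and 0.49 in AMD3100 (adjusted p = 0.532), an interaction of -0.52 (95% interval -1.69 to 0.65). ccr9a, a chemokine receptor gene also known from thymocytes, held 72.3, 74.0 and 75.4 CPM in uninjured DMSO, 246, 193 and 226 in injured DMSO, 62.7, 65.9 and 76.8 in uninjured AMD3100 and 519, 146 and 225 in injured AMD3100. It rose in both treatments, though the call in DMSO was lost without any 1 of the 6 DMSO libraries, and its interaction was 0.52 (-0.56 to 1.59), or -0.14 without injured AMD3100 replicate 1, which held the 519. cxcl8a, a ligand gene at 8.41 CPM or less in every library, had an interaction of 1.04 (-1.81 to 3.89), or 0.36 without injured AMD3100 replicate 1.

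il11b was the cytokine gene that stood furthest from equal responses. It encodes an interleukin 11, a cytokine of the interleukin 6 family that signals through the shared receptor gp130. It held 3.81, 5.86 and 5.82 CPM in uninjured DMSO and 45.5, 48.0 and 21.3 in injured DMSO. It held 5.39, 10.2 and 15.3 CPM in uninjured AMD3100 and 2.80, 1.01 and 14.3 in injured AMD3100. The 3 injured DMSO libraries were above all other 9, and the injured AMD3100 libraries overlapped the uninjured ones of both treatments, replicate 3 being the highest of them.

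With injury il11b rose by 2.87 in DMSO (log2, adjusted p = 0.029), and its value in AMD3100 was -0.57 (adjusted p = 0.69). The interaction was -3.44 (unadjusted p = 0.00293, adjusted p = 1, 95% interval -5.50 to -1.37), so it missed the threshold over all genes. Over the 26 alternatives it ranged from -5.75 to -2.45. It was called in 2 of them. Without the filter on low counts it was 1 of 68 called genes (adjusted p = 3.83e-05). Without injured AMD3100 replicate 3 it was 1 of 2 (adjusted p = 0.034). The rise in DMSO was itself lost with limma-voom and without any 1 of the uninjured DMSO libraries or without injured DMSO replicate 1 or 2. il6st, the gene of gp130, picked after its values were seen, rose in both treatments, by 1.58 in DMSO (adjusted p = 0.00471) and 1.22 in AMD3100 (adjusted p = 0.017).

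Of the 19 tested inflammatory cytokine and receptor genes, il11b and il6st rose in DMSO, il6st alone in AMD3100, and none fell. Over all tested genes 2.86% rose and 2.33% fell in DMSO, and 3.00% rose and 2.41% fell in AMD3100. The median log2 fold change of the 19 was 0.45 in DMSO and 0.23 in AMD3100. A positive interaction was found in 5 of the 19, against 47.3% of all genes tested. il1b, the gene of interleukin 1 beta, held 177, 142 and 219 CPM in uninjured DMSO, 271, 280 and 292 in injured DMSO, 177, 231 and 176 in uninjured AMD3100 and 276, 272 and 198 in injured AMD3100. Injured DMSO libraries were all above uninjured ones, and in AMD3100 the groups overlapped through injured replicate 3. The interaction of il1b was -0.29 (95% interval -1.04 to 0.46), and injury did not pass the test in DMSO (adjusted p = 0.16) or AMD3100 (adjusted p = 0.471).

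**Figure D3:**
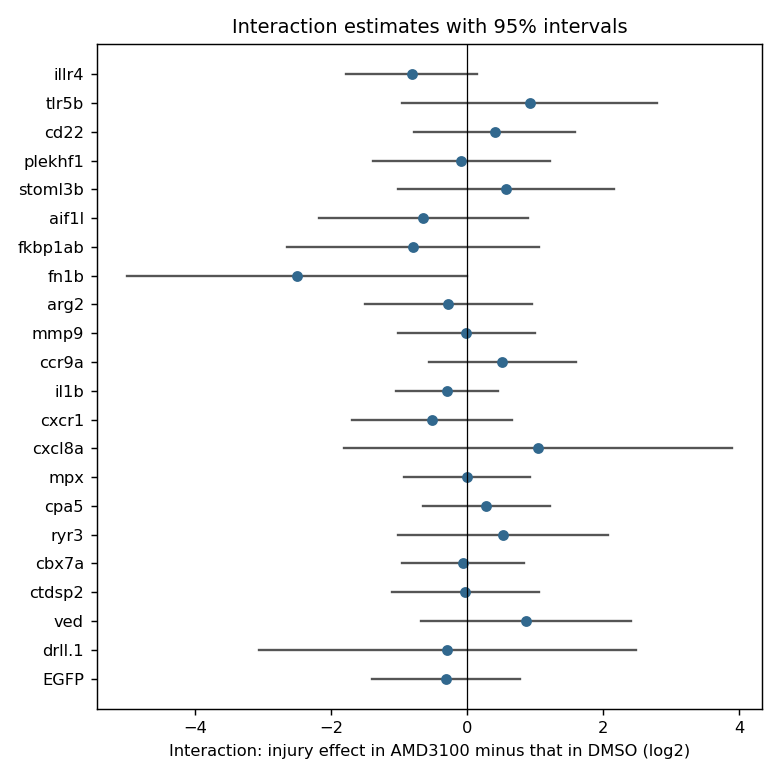
Interaction estimates (points) with 95% intervals (lines) for 22 named genes, on the log2 scale; values right of 0 mean a higher log2 fold change with injury in AMD3100, values left of 0 a lower one. The interval of fn1b ends just left of 0 at -0.001 and the intervals of the other 21 hold 0. They are narrowest for il1b and widest for drll.1 and cxcl8a. Named genes not drawn here include some whose intervals leave out 0, such as il11b, dynlt1, hadh, vps52 and myl13.

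The genes with the smallest interaction p-values all missed the threshold, and many had few counts. wasla, which encodes a protein that turns on actin branching, had the smallest, an unadjusted p of 0.000416. Uninjured AMD3100 held it at 25.9, 11.62 and 3.25 CPM, and the other libraries at 1.63 CPM or less, 4 of them with 0 counts. High values in uninjured AMD3100 were also seen in rtn2b, a reticulon gene of the endoplasmic reticulum (unadjusted p = 0.000795), and in cdnf, the gene of a neurotrophic factor (unadjusted p = 0.00247), with 2.67 to 5.50 CPM and 1.69 to 13.8 CPM in uninjured AMD3100 and at most 2.66 and 1.99 CPM elsewhere. For wasla and rtn2b all uninjured AMD3100 libraries were above the other 9, while for cdnf uninjured AMD3100 replicate 1 lay below injured DMSO replicate 1.

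Some genes with small p-values had more counts, and of these hadh crossed between treatments. hadh, which encodes an enzyme of mitochondrial fatty acid oxidation, held 8.16, 6.59 and 6.91 CPM in uninjured DMSO and 15.3, 17.2 and 12.5 in injured DMSO, then 16.5, 10.9 and 15.0 in uninjured AMD3100 and 8.41, 10.6 and 7.70 in injured AMD3100. Injured libraries were all above uninjured ones in DMSO and all below in AMD3100, where the nearest were 10.6 and 10.9 CPM. hadh was named for its small interaction p, so this order is not further support, and injured AMD3100 replicate 1 held 6 counts of hadh. The interaction was -1.69 (unadjusted p = 0.00191, 95% interval -2.65 to -0.73), while neither treatment's own injury effect passed (adjusted p = 0.0754 and 0.278).

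vps52, which encodes a subunit of a complex that tethers vesicles at the Golgi, held 22.3, 36.6 and 30.0 CPM in uninjured DMSO, 43.8, 31.8 and 27.4 in injured DMSO, 30.3, 41.1 and 47.8 in uninjured AMD3100 and 14.0, 16.7 and 18.1 in injured AMD3100. The 3 injured AMD3100 libraries were below all other 9. It fell with injury in AMD3100 (log2 fold change -1.26, adjusted p = 0.026), its value in DMSO was 0.21 (adjusted p = 0.753), and the interaction was -1.47 (unadjusted p = 0.00325, 95% interval -2.36 to -0.57). The fall in AMD3100 was lost without replicate 2 of injured DMSO, uninjured AMD3100 or injured AMD3100, without uninjured AMD3100 replicate 3, or with the muscle or the mitochondrial rRNA share as covariate. SCARF2, a scavenger receptor gene, held 6.404, 10.2 and 7.005 CPM in uninjured AMD3100 and 1.40, 0.862 and 1.39 in injured AMD3100, with 0.727 to 6.97 across the DMSO libraries. SCARF2 had few counts, with 1, 6 and 17 in the injured AMD3100 libraries. The interaction of SCARF2 was -3.63 (unadjusted p = 0.00174, 95% interval -5.67 to -1.59).

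On the positive side, evi5a, of a family of proteins that switch off Rab GTPases, had the smallest p. It held 8.70, 3.66 and 13.8 CPM in uninjured DMSO, 3.65, 4.69 and 3.69 in injured DMSO, 4.72, 4.06 and 5.50 in uninjured AMD3100 and 14.0, 9.34 and 10.3 in injured AMD3100. The groups overlapped in DMSO and stood apart in AMD3100, where injured libraries were higher. The interaction was 2.37 (unadjusted p = 0.00151, 95% interval 1.07 to 3.67), and injury passed the test in neither treatment (adjusted p = 0.134 in both). c6ast4, tpcn3, lmf2a, evi5b and nexmifb were also among the 10 smallest p-values of this direction, counted over genes with ordinary symbols, each with at least 1 library at 0 counts, and injured DMSO held 0 counts of lmf2a in all 3 libraries.

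**Figure D4:**
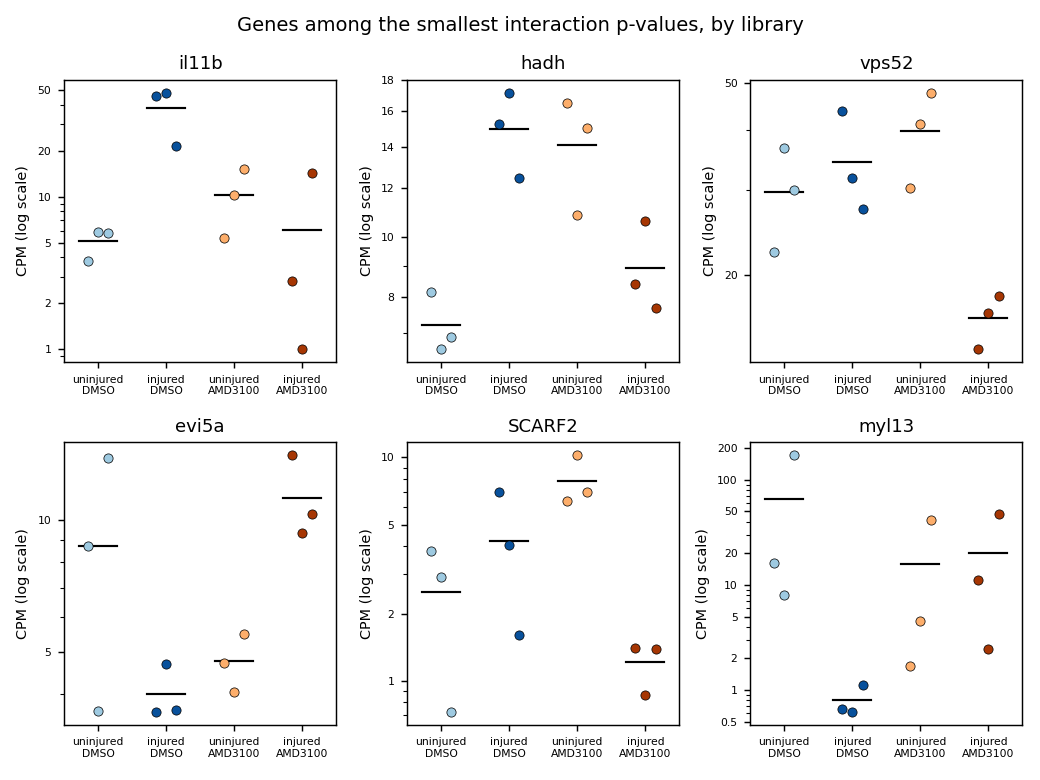
Level of 6 genes among those with the smallest unadjusted interaction p-values, in each library (CPM, log axis), by group; points are the 3 libraries of a group and bars their mean. il11b is high in the injured DMSO group alone, vps52 is low in the injured AMD3100 group alone, hadh moves in opposite directions in the treatments, and myl13 is low in injured DMSO. None passed the adjusted threshold.

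The positive side also held genes of other cells of the trunk. myl13, tpm2 and pvalb4, genes of muscle fibres, and hbbe1.2, an embryonic globin gene of red blood cells, were among the same 10. Most tested muscle genes went the other way. Of 49 in the list 13 had a positive interaction, against 47.3% of all genes, and the median interaction of the list was -1.33. myl13, a myosin light chain gene, held 16.3, 8.06 and 172 CPM in uninjured DMSO, 0.664, 0.619 and 1.12 in injured DMSO, 1.69, 4.52 and 41.3 in uninjured AMD3100 and 11.2, 2.44 and 46.9 in injured AMD3100. Replicate 3 was the highest library of each of the 4 groups. The interaction of myl13 was 6.83 (unadjusted p = 0.00229, 95% interval 2.86 to 10.8). hbbe1.2 held 4.35, 69.6 and 12.18 CPM in uninjured DMSO against 2.66, 0.531 and 0.16 in injured DMSO, and 2.36, 11.8 and 6.75 against 5.61, 15.9 and 2.37 in AMD3100, an interaction of 5.18 (unadjusted p = 0.00284).

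Of 49 tested skeletal muscle genes, 11 had an unadjusted interaction p under 0.05, 7 positive and 4 negative, which is 22.4% beside 3.13% of all genes. Of 14 erythroid genes there were 4, all positive, 28.6%. The muscle list had a median log2 fold change with injury of -1.01 in DMSO and -2.29 in AMD3100. Of its genes 5 fell in DMSO and 7 in AMD3100, beside 2.33% and 2.41% of all genes. The muscle list took 0.348% to 2.27% of counts in uninjured DMSO, 0.154% to 1.198% in injured DMSO, 1.66% to 5.25% in uninjured AMD3100 and 0.241% to 1.70% in injured AMD3100. The erythroid list had medians of -2.73 in DMSO and 0.02 in AMD3100 and took 0.0372% of counts or less in any library. tpma, a tropomyosin gene, had an interaction of -3.64 (unadjusted p = 0.0147), and -4.17 without injured AMD3100 replicate 1. It held 2284, 2273 and 6055 CPM in uninjured AMD3100, more than any other library, where it ranged from 79.8 to 1643. The part of muscle and blood RNA in the interaction of other genes was not tested beyond a fit with the muscle share as a covariate, which called 0 genes and had 474 at an unadjusted p under 0.05. With the genes of all 12 lists of other cell types left out, 0 were called and 248 had an unadjusted p under 0.05.

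Gene lists for cell functions were then set side by side in the 2 treatments. Each count below stands beside the shares over all tested genes, of which 2.86% rose and 2.33% fell in DMSO and 3.00% rose and 2.41% fell in AMD3100. Of all tested genes 47.3% had a positive interaction, the share to set beside each count of positive interactions. The proteasome, which degrades tagged proteins, had the largest count: of 40 tested genes 16 rose with injury in DMSO and 22 in AMD3100, and none fell. Its median log2 fold change was 1.00 in DMSO and 1.13 in AMD3100, and the median interaction was -0.03, with 19 of 40 positive. psma4 and psma6b, genes of subunits of the core ring, had the smallest interaction p in each direction, with interactions of 0.91 (95% interval 0.02 to 1.80) and -1.13 (-2.03 to -0.23). Without injured AMD3100 replicate 1 that of psma4 was 0.47. psma6b held 13.6, 19.8 and 21.6 CPM in uninjured DMSO, 42.2, 43.6 and 61.4 in injured DMSO, 36.4, 37.4 and 32.8 in uninjured AMD3100 and 29.4, 57.1 and 39.7 in injured AMD3100. All uninjured AMD3100 libraries of psma6b were above all uninjured DMSO ones, and the injured groups overlapped.

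Of 47 lysosome and phagocytosis genes, 11 rose in DMSO, and 16 rose and 1 fell in AMD3100. The median was 0.60 in DMSO and 0.73 in AMD3100, the median interaction was 0.22, and 29 of 47 were positive. ctsd, the gene of the protease cathepsin D, held 48.4 to 54.1 CPM in uninjured and 68.7 to 93.7 in injured DMSO, and 49.2 to 74.8 and 86.9 to 141 in AMD3100. Its interaction was 0.23 (95% interval -0.57 to 1.03). Of 76 nuclear-encoded genes of oxidative phosphorylation, 3 rose in DMSO and 5 in AMD3100, with medians of 0.38 and 0.55. ndufa4, of the respiratory chain, rose in AMD3100 (log2 fold change 2.18, adjusted p = 0.00649), its value in DMSO was 1.06 (adjusted p = 0.136), and the interaction was 1.12 (95% interval -0.05 to 2.29), with 733 CPM in injured AMD3100 replicate 1 and 243 and 210 in the other 2. Without that library the interaction of ndufa4 was 0.33.

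Of 31 genes of glycolysis and hypoxia, 10 rose in DMSO, and 9 rose and 2 fell in AMD3100. The median was 0.55 in DMSO and 0.26 in AMD3100, the median interaction was -0.19 and 10 of 31 were positive. Of 17 genes of extracellular proteases and matrix, 3 rose in each treatment, and 5 of 17 had a positive interaction, the median being -0.43. Of 70 cell cycle genes, 1 rose and 4 fell in DMSO (all genes 2.86% and 2.33%) and 7 fell in AMD3100 (2.41%), with medians of -0.44 and -0.60. prim1, which encodes the small subunit of DNA primase, fell in AMD3100 (log2 fold change -1.97, adjusted p = 0.038) and had -0.41 in DMSO (adjusted p = 0.693), with an interaction of -1.55 (95% interval -3.03 to -0.07). Its lowest library was injured AMD3100 replicate 1 at 4.21 CPM, with 14.5 and 19.1 in the other 2, and its call in AMD3100 was kept in 13 of 26 alternatives. The interaction of prim1 was -1.28 without that library and -0.93 without uninjured AMD3100 replicate 1.

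Of 76 cytosolic ribosomal protein genes, none changed in DMSO and 1 fell in AMD3100, and the median interaction was 0.15 with 48 of 76 positive. Of 26 genes of JAK-STAT and interferon signalling, 1 rose and 1 fell in each treatment, close to the shares over all genes, with medians of 0.26 in DMSO and -0.13 in AMD3100. Of 33 immediate early genes, none changed in DMSO, and 1 rose and 2 fell in AMD3100. Of 35 genes of cell death and survival, 3 rose in DMSO and 1 in AMD3100. gsdmea, which encodes a gasdermin that forms membrane pores, held 0 counts in 2 uninjured DMSO libraries and 4.32, 3.80 and 4.81 CPM in injured DMSO, and 0.337, 1.199 and 0.75 CPM in uninjured and 5.61, 6.32 and 0.90 in injured AMD3100. Injured and uninjured libraries of gsdmea overlapped in AMD3100 alone, and the interaction had an unadjusted p of 0.0702. The median interaction kept its sign in all 26 alternatives for the chemokine, cytokine, NADPH oxidase, protease, glycolysis, lysosome, ribosomal protein, immediate early and splicing factor lists. It did so in 15 for the proteasome and 18 for neutrophil granules and identity. The alternatives reuse the same libraries, so a kept sign is not independent support. None of the 35 lists held a gene that passed the interaction threshold.

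**Figure D5:**
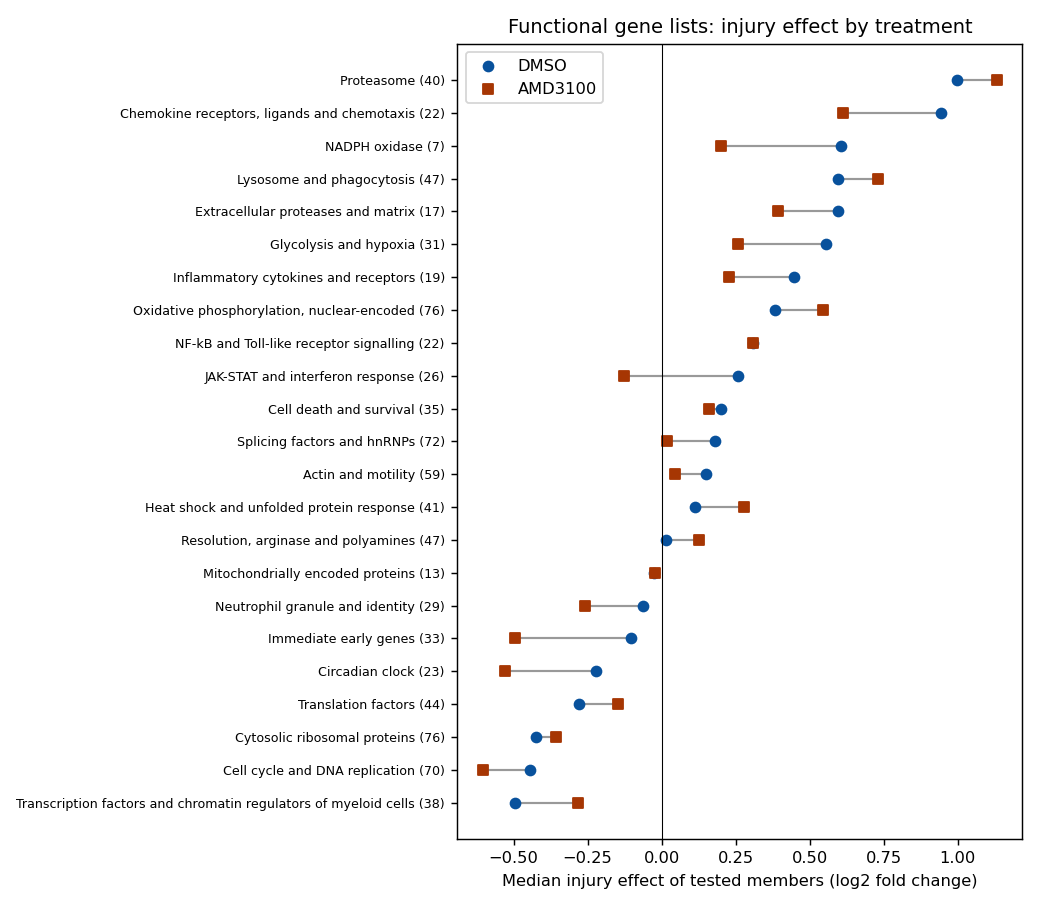
Median log2 fold change with injury of the tested members of each of the 23 functional gene lists, in DMSO (blue circles) and in AMD3100 (brown squares), with the number of tested genes in brackets. The proteasome list lies furthest right in both treatments at 1.00 and 1.13. The widest gaps are those of NADPH oxidase (0.61 and 0.20), immediate early genes and JAK-STAT (0.26 and -0.13).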

How the data were processed

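Sorted cells (2500 to 4800 per library) were sequenced by an adapted CEL-seq protocol, which counts transcript ends, per the labels' protocols. The deposited values are raw counts per gene, without normalization. GRCz11, BWA and DESeq2 1.38 appear in the submitters' processing notes. Nothing there says if reads with the same molecular identifier were merged. The table joins overlapping genes in 5877 entries, kept as they are; 77 were tested.

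The fits used edgeR 4.0.16 (R 4.3.3): filterByExpr by group (minimum count 10, minimum total 15), TMM factors, and a quasi-likelihood fit with 1 coefficient per group over all 12 libraries (common biological coefficient of variation 0.380). Each p was adjusted by Benjamini-Hochberg over 8453 genes, threshold 0.05. Standard errors were derived from the F statistic, and 95% intervals from them. Alternatives were DESeq2 1.42.0, limma 3.58.1 (voom, with and without quality weights), RLE and upper-quartile factors, other filters, a replicate block, gene sets left out, thinning, covariates, and each library left out. The fit was tested on simulated data.

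The 35 gene lists (1587 genes written, 1487 found, 997 tested) and the naming rule were chosen with earlier results of these data known. The rule took the 10 smallest interaction p-values per direction among genes with ordinary symbols, the 8 largest rises and falls of the mean injury effect with at least 20 CPM, the smallest interaction p per list and direction, and a set of immune genes; the text names part of them. Clone-named entries, and symbols held by 2 entries (lyz, mmp13a), were not described. Some results for single genes are not reported here.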

Additional observations from a re-analysis of the deposited data

Results flagged for a closer look

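The ERCC spike-ins, 88 entries of added control RNA left out of every comparison, gave counts in all 12 libraries. As a percentage of counts they took 0.00705, 0.00648 and 0.0112 in uninjured DMSO replicates 1 to 3 and 0.0159, 0.0133 and 0.0057 in injured DMSO. They took 0.00994, 0.00912 and 0.0131 in uninjured AMD3100 and 0.0436, 0.0122 and 0.0129 in injured AMD3100. The highest value, 0.0436%, was that of injured AMD3100 replicate 1, the library with the fewest counts. The labels do not state how much spike-in each library received, and its part in any result was not tested.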

How the results depend on the processing

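The interaction called 0 genes in the main analysis, 68 without the filter on low counts, 0 to 2 with 1 library left out (2, il11b and znf292b, without injured AMD3100 replicate 3) and 0 in each other alternative. Injury in DMSO called 439 genes, and 760 at an adjusted p under 0.1, 692 with DESeq2, 701 without the filter, 951 with voom quality weights, 251 after thinning and 163 to 659 with 1 library left out. Injury in AMD3100 called 458, and 735 at an adjusted p under 0.1, 714 without the filter, 707 with limma-voom, 280 after thinning, 171 and 281 with muscle or mitochondrial ribosomal RNA share as a covariate, and 119 to 574 with 1 library left out. The mean injury effect called 1351, and 757 after thinning, 729 with the muscle covariate and 910 to 1662 with 1 library left out. The causes were not tested. With the replicate number as a block the interaction called 0 genes (242 at an unadjusted p under 0.05) and the 2 injury contrasts 353 and 325. The main fit had no such block because the labels do not say what a replicate number marks. Of 18 same-numbered pairs, 1 deviated together with r over 0.1 (range -0.111 to 0.14). Of 2583 interaction values of named genes, 95 had the opposite sign to the main value, 83 of them within 1 standard error of it. The other 12 were, with voom quality weights ryr3 (-0.27) and apoa1a (-0.14), after thinning ctdsp2 (0.90), with the muscle covariate gata2a (0.23), and with 1 library left out tlr5b (-0.59 to 1.42), cd22 (-0.17 to 0.75), ryr3 (-0.23 to 1.18), ccr9a (-0.14 to 0.89) and 1 entry named lyz (-0.19 to 1.34), each lowest without injured AMD3100 replicate 1, and drll.1 (-1.90 to 1.18), bsnb (-4.66 to 0.17) and zfp36l1a (-5.32 to 2.37). Another 17 passed the threshold, 16 of them without the filter.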
